A study of Mus musculus with 48 samples.

Results

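These are the transcriptomes of 10 single wild-type mouse embryos at the 2-cell stage. They were chosen by depth alone: a WT library entered with at least 1000000 counts over annotated mouse genes and at least 12000 genes with a count, and 10 of the 24 WT libraries did so, in a series of 48 single embryos. Just inside the rule stood WT replicate 19, with 1842308 counts and 14727 detected genes, and just outside it stood WT replicate 5, with 1064553 counts and 10323 genes. All WT embryos were of strain C57BL6, were taken 26 to 28 hours after fertilization and were sequenced 1 per well with Smart-seq2, which copies whole polyadenylated RNAs. The labels list neither parents nor litters. The members are replicates 8, 9, 12, 15 and 19 to 24, written WT8, WT9 and so on below.

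The mouse embryo begins life on RNA and protein stored in the oocyte. Transcription of the new genome surges at the 2-cell stage, in genes such as the Zscan4 and Tcstv families, Zfp352 and relatives, many of them in multicopy clusters, while stored maternal RNA is degraded. A 2-cell embryo thus holds a mixture of an older maternal pool and a younger embryonic one, and single embryos collected in one window can stand at different points of that exchange.

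Depth in the 10 libraries ran up to 5309505 counts in WT24, and detected genes up to 19417 in WT15. WT19 stood apart before any list was examined: it was the shallowest, its median rank correlation with the other embryos was 0.576, against a median of 0.760 over all pairs, and it lay alone on the second principal component. WT20 came next, at 0.636. Embryos also differed by transcript length, on the log2(CPM + 1) scale as deviations from each gene's mean. In WT19 the quartile of tested genes with the shortest transcripts lay 0.57 higher than that with the longest. WT9 had 0.43, WT21 0.32, WT20 -0.06 and WT24, the lowest, -0.38. The change with length was not even in WT19, whose quartiles stood at 0.64, -0.56, -0.17 and 0.07 from shortest to longest. CPM is a gene's counts scaled to a common library size. The part of depth and of length in the differences below was not tested, and values without WT19 are given where they differ. No 2 libraries were alike to within counting noise. The closest pair, WT9 and WT15, still differed with a chi-square of 23.9 times its degrees of freedom.

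The labelled stage was checked against marker genes. All 11 markers of the 2-cell stage and all 10 of the oocyte had counts in every embryo, with summed levels of 393.0 to 2024.5 CPM and 974 to 2643.9 CPM. Of 12 markers of cumulus and granulosa cells, which surround the egg, 10 had a count somewhere, none in every embryo, with Inha and Inhba at 0 and sums of 1.46 to 27.0 CPM. Of 8 blood markers, 5 had a count, Hbb-bs, Hbb-bt and Tyrobp were at 0, and the sums were 11.6 to 46.9 CPM. The 2 with a count in every embryo were Hba-a1 (0.304 to 12.8 CPM) and Hba-a2 (1.53 to 16.8 CPM). Of 7 sperm markers, 3 had a count and 1 had a count in every embryo, Tnp1, Tnp2, Akap4 and Smcp were at 0, and the sums were 1.18 to 19.7 CPM. The 1 with a count in every embryo was Prm2, which encodes protamine 2, from 1.18 CPM in WT15 to 17.5 CPM in WT19. Prm1, which encodes protamine 1, had at most 0.731 CPM, also in WT19. Summed markers of the blastocyst ran from 2.55 CPM in WT20 to 203 CPM in WT9.

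Of 55421 annotated genes, 26647 had a count in at least 1 embryo and 9826 (17.7%) in all 10. Another 4246 genes were seen in exactly 1 embryo, and 2172 in 9. With every library thinned to the depth of WT19, 9334 genes remained detected in all 10. Protein-coding genes held a median of 84.6% of TPM, a transcript abundance that corrects for length and so allows levels of different genes to be compared. All levels are shares of a library, with no measure of total RNA per embryo. Long intergenic noncoding RNAs held 3.20% and processed pseudogenes 2.11%.

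The RNA was concentrated in few genes. The 100 genes with the highest median TPM held 47.3% of all TPM on average, from 39.5% in WT22 to 54.7% in WT21. There were 104 genes with a median of at least 1000 TPM, 1229 of at least 100, 6197 of at least 10 and 13224 of at least 1. The mitochondrial genome supplied 13 of the top 100 and 12.9% to 28.7% of TPM per embryo. Its highest entry by TPM was mt-Atp8, a small subunit of ATP synthase, with a median of 67098 TPM. It ran from 44654 TPM in WT15 to 108455 TPM in WT21. TPM weighs short transcripts more, and on the CPM scale mt-Atp8 was not the highest, with a median of 282 CPM. The medians of mt-Cytb and mt-Atp6 were 23568 and 13671 CPM. The nuclear entries Gm10925 (median 36798 TPM), Gm10222 and Gm28661 are annotated copies of mitochondrial sequence, and reads cannot be assigned securely between them and their source. Membership of the top set was only partly shared: an embryo's own 100 held between 67 (WT19) and 93 (WT12 and WT23) of the 100 genes, and 35 genes, 8 of them mitochondrial, were in the top 100 of all 10.

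**Figure D1:**
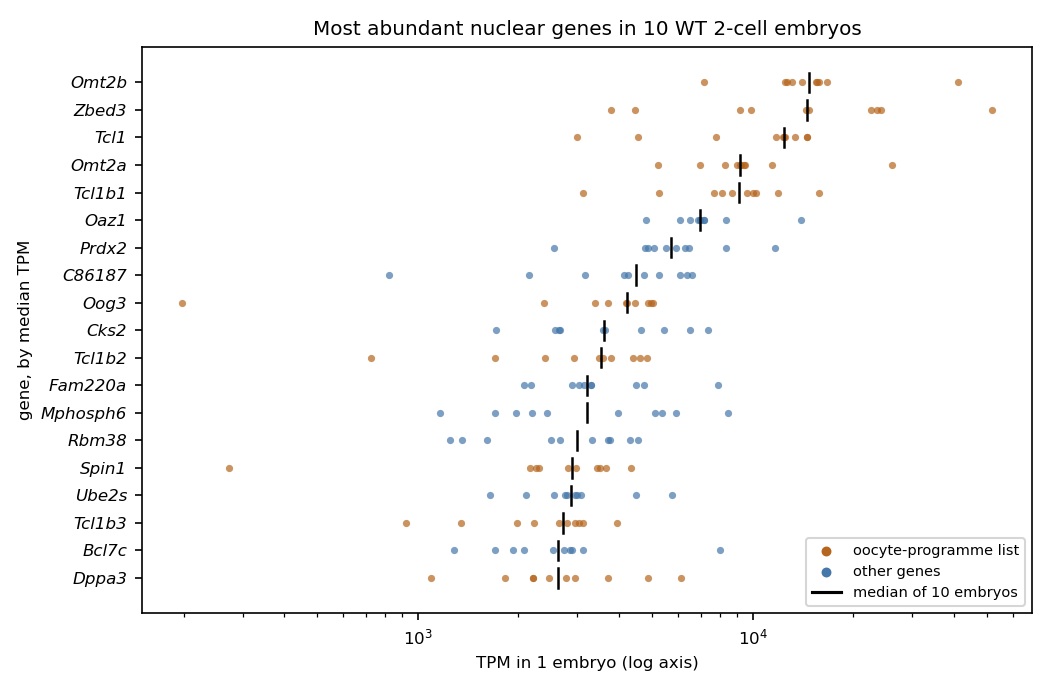
TPM (log axis) of the most abundant nuclear genes with a standard symbol, 1 point per WT embryo and a bar at the median of 10, brown for genes of the oocyte-programme list and blue for the others. Omt2b, Zbed3 and Tcl1 have the highest medians, and Oog3 and Spin1 each have 1 embryo, WT19, far to the left of the rest.

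Genes of the oocyte programme led the nuclear ranking, as the plot of the most abundant genes shows. The 77 genes of the oocyte-programme list held a median of 10.3% of TPM, from 4.96% in WT24 to 15.8% in WT20, and 18 of them were in the top 100. Omt2b, an oocyte maturation gene on chromosome 9, had 7157 TPM at the lowest, 14744 at the median and 41034 at the highest, in WT19. Without that embryo the highest was 16690 TPM, in WT9. Its relative Omt2a had 5225, 9190 and 26093 TPM, again highest in WT19. The copies of such families are near-identical, so the split of reads between them is uncertain.

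Zbed3, a maternal protein that binds Axin, had 3786 TPM in WT19, a median of 14558 and 51704 in WT20, the widest absolute span among the 25 nuclear genes ranked highest. Tcl1, a cofactor of the kinase Akt, was steadier, with 2981, 12371 and 14581 TPM and its lowest value again in WT19. Its paralogs Tcl1b1, Tcl1b2 and Tcl1b3 had medians of 9129, 3523 and 2722 TPM. Dppa3, also called Stella, which guards maternal DNA methylation, had 1097, 2626 and 6123 TPM. Btg4, an adaptor that brings the deadenylase complex to maternal RNA, had 607, 2562 and 5831 TPM.

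Several abundant genes lay outside that list. Oaz1, an inhibitor of polyamine synthesis, had a median of 6969 TPM and Prdx2, a peroxide-reducing enzyme, 5708. Cks2, a cyclin-dependent kinase subunit, had 3602 TPM and Ube2s, a ubiquitin-conjugating enzyme of the anaphase-promoting complex, 2873. C86187 had 4493 TPM. No member of the 2-cell activation list reached the top 100. The 39 activation genes together held 0.042% of TPM in WT19, a median of 0.287% and 0.488% in WT24, and their highest tested member, Tcstv3, ranked 481 at a median of 241 TPM. The 87 cytosolic ribosomal protein genes held 0.935% (WT20) to 3.44% (WT19), with Rplp0 at a median of 1754 TPM.

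Variation between embryos was measured as the biological coefficient of variation (BCV): the relative spread of a gene's true level between embryos after counting noise is removed, estimated in edgeR with shrinkage to a trend over expression. With 1 library per embryo it also holds the spread that copying and amplification add, and these sources cannot be told apart. The filter kept 6877 genes and in effect required expression in all 10 embryos. It removed 128 of the 3464 genes with a mean of at least 50 CPM, among them Zscan4c, which ran from 2.19 CPM in WT19 to 328 CPM in WT8. The median BCV was 0.550, with quartiles of 0.500 and 0.616 and a range of 0.390 to 1.01. Among the genes that passed the filter it depended little on level. The median was 0.504 for the 207 genes with a mean below 10 CPM, 0.542 from 10 to 30 CPM and 0.566 from 1000 CPM upward. Genes of low level entered only if expressed in nearly every embryo, so these values do not describe low genes in general. The BCV moved with length: relative to the trend the median was 1.02 in the quartile of genes with the shortest transcripts and 0.905 in that with the longest.

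**Figure D2:**
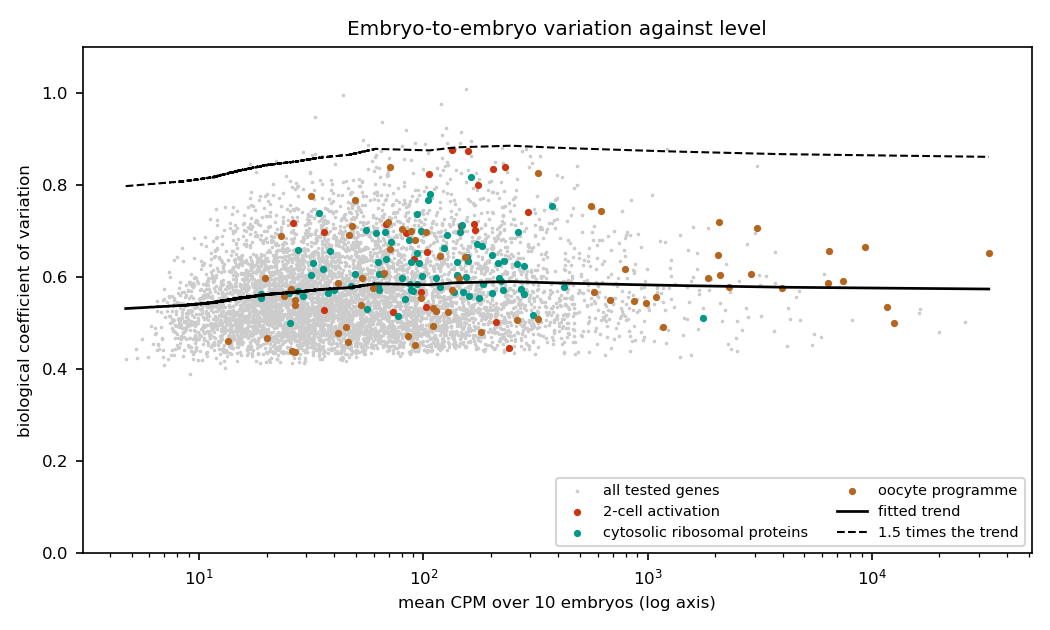
BCV (vertical axis) against mean CPM (log axis) for 6877 tested genes, with the fitted trend as a solid line, 1.5 times the trend as a dashed line, and 3 lists in colour. Most activation genes (red) lie above the solid line and none crosses the dashed one, while ribosomal protein and oocyte genes straddle the trend.

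A BCV of at least 1.5 times the trend was reached by 25 of 6877 genes (0.364%), 15 of them with a standard symbol. None lay at or below the trend divided by 1.5, but with no shrinkage 1404 did, against 321 at or above 1.5 times the trend. The count was 61 without WT19, 16 without WT15, 15 without WT24, 13 without WT12 and 11 without WT22. It is a description of these embryos, with no test behind it.

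The 20 most variable named genes included transcription regulators, enzymes and genes of early-embryo families. Cited1, a transcriptional coactivator on the X chromosome, had 4.34 CPM in WT24, a median of 29.9 and 353 in WT19, with a BCV 1.60 times the trend. Nr1d1, the circadian repressor Rev-erb alpha, had 6.15 CPM in WT24, a median of 38.2 and 377 in WT19 (1.57 times). Smim11, a small membrane protein, had 9.73 CPM in WT8, a median of 33.4 and 408 in WT19. In all 3 the highest value was that of WT19.

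Others spread across several embryos. Dclre1a, a nuclease of DNA crosslink repair, had 304, 239 and 168 CPM in WT15, WT9 and WT20, 69.6 in WT23, and at most 33.8 in the other 6 embryos. Alppl2, an alkaline phosphatase, had 116 CPM in WT21, a median of 1043 and 3304 in WT22. Nop2, an rRNA methyltransferase, had 12.8 to 30.7 CPM in WT9, WT15, WT19 and WT20 and 140 to 444 CPM in the other 6, with no value between. Mat2a, which makes the methyl donor S-adenosylmethionine, had 10.4 CPM in WT21, a median of 47.7 and 330 in WT22. Mt1, a metal-binding metallothionein, had 6.13 CPM in WT20, a median of 184 and 1167 in WT19.

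At the other end, 15 genes were the steadiest for their level. Wtap, a subunit of the RNA methylation writer complex, had 1232 CPM at the lowest, 1334 at the median and 1850 at the highest, with a BCV 0.733 times the trend. Wwc2, a Hippo pathway scaffold, had 259, 302 and 388 CPM. Bap1, a histone deubiquitinase, had 55.6, 80.2 and 93.8 CPM. Rnf141, a RING-finger protein, had 493, 642 and 816 CPM, and Cecr2, a chromatin remodeling factor, had 191, 254 and 329 CPM. The other 10 were Pcnp, Gtf2a1, Zc3h15, Phkg2, Prickle1, Arih1, Trappc10, Chsy1, Tcf3 and Rnf111, at 0.738 to 0.745 times the trend.

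Of 22 genes used as reference genes in quantitative PCR, 21 were tested, 12 lay above the trend and the list's median was 1.00 times the trend, against 0.960 over all tested genes. Without WT19 this turned: 7 of 21 lay above and the median was 0.914, against 0.952 over all tested genes. With all embryos, Ppia had 0.780 times the trend and a BCV of 0.456. Tfrc, the transferrin receptor, stood at the other end with 1.44 times, and ran from 6.13 CPM in WT20 to 340 CPM in WT22. Tuba1b had 1.28 times the trend, and Gapdh 0.925 with a BCV of 0.546.

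Gene groups differed in their spread. Among the tested activation genes, 22 of 39 listed, 16 lay above the trend with a median of 1.21 times it, beside 2720 of 6877 genes above it and a median of 0.960 over all tested genes. None of the 22 reached 1.5 times the trend. Without WT19, when 29 listed genes passed the filter, the list's median was 1.24 (21 above the trend). The 7 tested Obox genes, oocyte-specific homeobox factors, had a median of 1.19, and the nuclear genes of oxidative phosphorylation 1.08 (34 of 43 above the trend), which was 0.986 without WT19. Oocyte-programme genes had 1.02 (35 of 68) and ribosomal protein genes 1.04 (52 of 78). Without WT19 both medians lay below the trend, at 0.970 (28 of 68) and 0.989 (37 of 78). Genes of maternal mRNA decay had 0.907, genes of paternal chromatin and DNA methylation 0.902 and the mitochondrial genome 0.912, with 4 of 24, 11 of 45 and 4 of 15 above the trend.

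**Figure D3:**
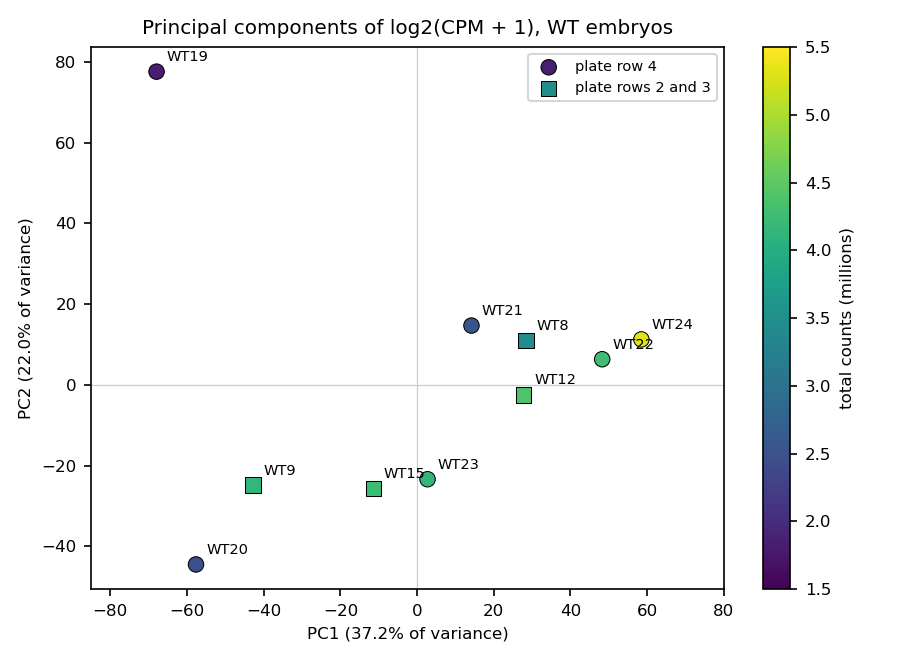
Positions of the 10 WT embryos on the first 2 principal components of log2(CPM + 1) over 6877 genes, circles for plate row 4 and squares for plate rows 2 and 3, coloured by total counts. PC1 runs from WT19 at -67.9 to WT24 at 58.5, and WT19 alone lies near 77.6 on PC2.

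Embryos were then placed by their overall profiles. The first principal component (PC1) held 37.2% of the variance and the second 22%. Along PC1, with the sign set so that activation genes load positively, the embryos stood at 58.5 (WT24), 48.3 (WT22), 28.4 (WT8), 27.8 (WT12), 14.2 (WT21), 2.73 (WT23), -11.4 (WT15), -42.8 (WT9), -57.7 (WT20) and -67.9 (WT19). Depth moved with it in part: WT19 and WT20 were the shallowest libraries, but WT21, the third, lay at 14.2 and WT9, with 4125478 counts, at -42.8. Without WT19 the other 9 kept this order, from 55.1 (WT24) to -73.8 (WT20), with WT23 now at -9.76. The most alike pair was WT22 and WT24, with a rank correlation of 0.892, and the least alike WT19 and WT24, with 0.489.

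Gene lists differed along PC1, as the plot of list levels shows. Activation genes tended to be high where PC1 was high: 21 of 22 correlated positively with it, with a median Pearson r of 0.65 over 10 embryos, against 3608 of 6877 and a median of 0.05 over all tested genes. Ribosome biogenesis genes did likewise (33 of 40, median 0.67). Oocyte-programme genes ran the other way, with 15 of 68 positive and a median of -0.46, as did nuclear oxidative phosphorylation genes (7 of 43, -0.60). PC1 was built from these same genes and embryos, so these values describe it and test nothing. Without WT19 the medians were 0.48 for activation, 0.77 for ribosome biogenesis, -0.73 for the oocyte programme and -0.37 for oxidative phosphorylation.

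**Figure D4:**
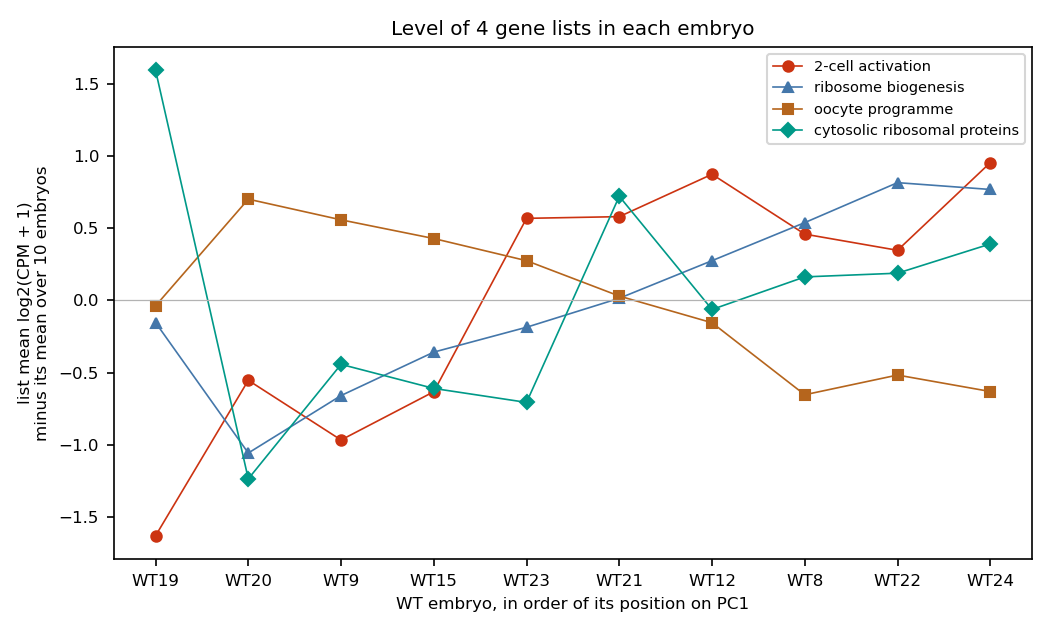
Mean log2(CPM + 1) of 4 gene lists in each embryo, minus the list's mean over the 10, with embryos ordered by PC1. Activation genes (red) and ribosome biogenesis genes (blue) are low at the left and high at the right, oocyte genes (brown) fall from WT20 onward, and ribosomal protein genes (green) peak in WT19.

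Cytosolic ribosomal protein genes moved together along PC2. The sign of PC2 was set so that these genes load positively. WT19, at 77.6, stood far above the next embryo on PC2, WT21 at 14.7. All 78 tested members correlated positively with PC2 (median r 0.84), beside 3568 of 6877 genes. Their median pairwise r was 0.74, against 0.00 over all tested genes. Nuclear oxidative phosphorylation genes (38 of 43 positive, pairwise 0.54) and the mitochondrial genome (11 of 15, pairwise 0.62) shared this in part. PC2 was built from these same genes and embryos, so its correlations describe it and test nothing. Values on PC2 and pairwise r are not given without WT19. The mean log2(CPM + 1) of the ribosomal protein genes was 7.95 in WT19, 7.07 in WT21 and 5.12 in WT20. On PC1 their median r was 0.08 with all embryos and 0.69 without WT19, when 74 of 78 were positive.

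The genes with the largest positive loadings on PC1 were Nop2, Wsb1, a ubiquitin ligase subunit, Psat1, an enzyme of serine synthesis, the transcription factor Gabpa, Impdh1, an enzyme of guanine nucleotide synthesis, and G3bp1, a stress granule protein. Psat1 had 5.62 CPM in WT20, a median of 128 and 355 in WT24. Wsb1 had 9.86 CPM in WT9, a median of 81.6 and 445 in WT22. The largest negative loadings were those of Ifitm6, Psenen, a gamma-secretase subunit, Ap2s1, a clathrin adaptor subunit, Ift43, Nr1d1 and Smim11. Ifitm6 had 13.6 CPM in WT24, a median of 56.7 and 383 in WT20, nearly the reverse order of the embryos on PC1 (r = -0.99).

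Single activation genes showed wide gaps between embryos. Zfp352, a zinc-finger gene on chromosome 4, had 33.1, 39.3 and 65.7 CPM in WT9, WT20 and WT19 and 283 to 579 CPM in the other 7, with no value between. Zscan4d, a telomere-associated zinc-finger gene on chromosome 7, had 5.84 CPM in WT19 and 7.46 in WT9, and 131 to 362 CPM in the other 8. WT20 was thus low for Zfp352 and, with 304 CPM, high for Zscan4d. Tdpoz1, a chromosome 3 gene of a multicopy family, had 10.7 CPM in WT20, a median of 119 and 457 in WT12. Gm5662 had 12.4 CPM at the lowest, 132 at the median and 939 at the highest. Genes resembling Zscan4d were sought only where the filter was passed, the symbol was standard and the average reached 50 CPM. Within these limits the closest over the 10 embryos were Zfp566 (Pearson r 0.95), Btk (0.95), Zscan4f (0.90), C86187 (0.90) and Stradb (0.90), picked by likeness alone. The search left out Zscan4c, which failed the filter. Zscan4c was also low in WT19 (2.19 CPM) and WT9 (14.1 CPM), with 98.6 to 328 CPM in the other 8.

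**Figure D5:**
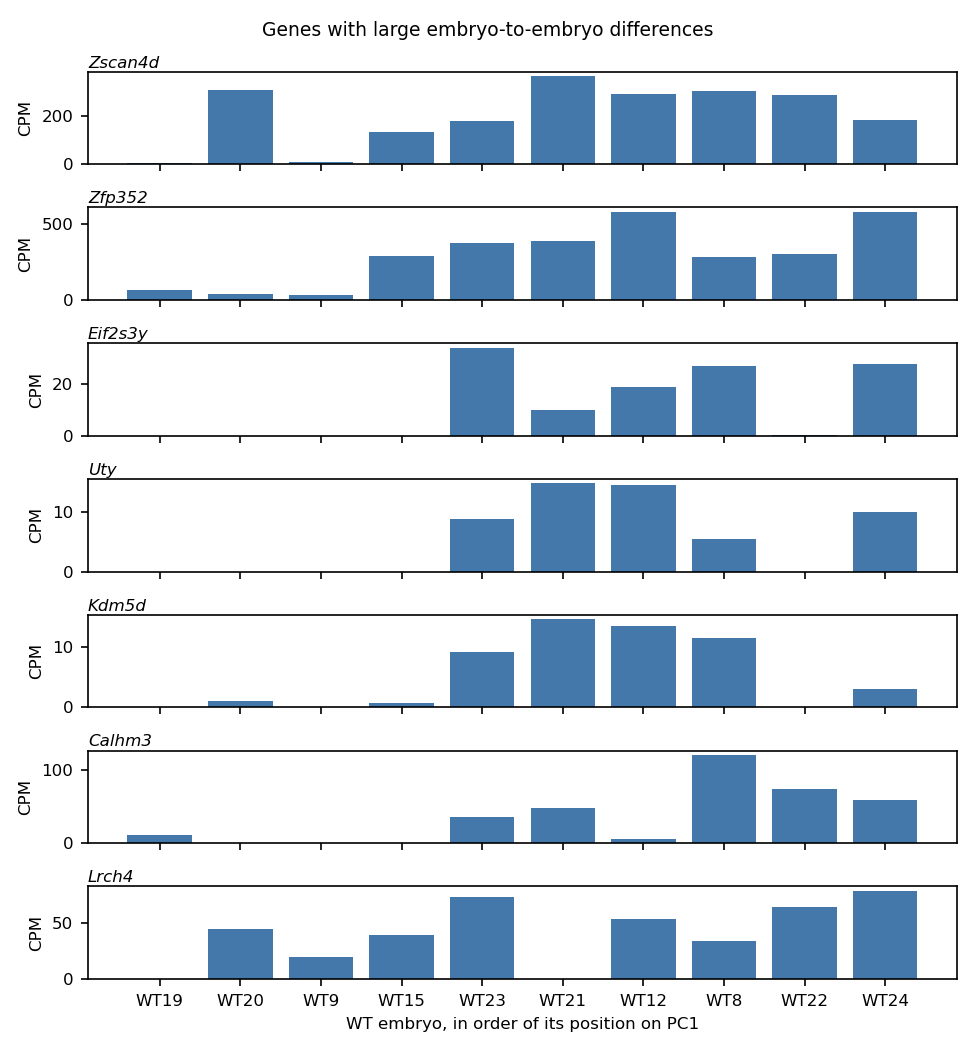
CPM of 7 genes in each WT embryo, ordered by PC1 from left to right. Zfp352 is low in the 3 leftmost embryos, Zscan4d in WT19 and WT9, the Y-linked Eif2s3y and Uty have counts mainly in WT23, WT21, WT12, WT8 and WT24, and Calhm3 and Lrch4 drop to 0 in 3 and 2 embryos.

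The Obox family split in direction. Obox1, Obox2, Obox5 and Obox7, known to be stored in the oocyte, had r with PC1 of -0.67, -0.73, -0.80 and -0.71, while Obox6 had 0.92, Obox8 0.66 and Crxos 0.43. Obox5 had 137 CPM in WT8, a median of 409 and 1599 in WT20. Obox6 had 43.1 CPM in WT19, a median of 504 and 1324 in WT21. Within the oocyte list, H1foo, the oocyte linker histone, had 56.2 CPM in WT22, a median of 147 and 1183 in WT20 (r = -0.92), and Ooep, of the subcortical maternal complex, 24.6 CPM in WT24, a median of 51.8 and 248 in WT19 (r = -0.96). Spin1 had r of 0.16 with WT19 included, where it stood at 2288 CPM. In the other 9 embryos it had 8362 CPM in WT24, the highest on PC1, up to 17523 CPM in WT20, the lowest.

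Promoter sequence gave a further view of the activation genes, since members that moved together could be compared in the 250 bases before their start (RefSeq, GRCm38.p6). Of the 22 tested members, 13 had a promoter in the table. The motif TAATCC, searched on both strands, is a core bound by homeodomains of the OTX and CRX type. It was present in 5 of the 13 promoters (38.5%), in 5.20% of the promoters of tested genes and in 6.38% of all 27025 promoters. Oocyte-programme promoters had it in 1.79%. The 13 are not independent, since some share a family, such as Zscan4d and Zscan4f or Tdpoz1 and Tdpoz4. Gm4027 and BB287469, both on chromosome 12, held 2 copies each. GGGCGG, a binding core of SP-type factors, was present in 1 of 13 (7.69%), against 62.1% of tested genes. Activation promoters held a median of 2 CG dinucleotides and oocyte-programme promoters 2.5, against 17 for tested genes, 13 for the 100 genes with the highest BCV relative to the trend and 21 for the 100 with the lowest.

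The Zfp352 promoter stood alone in the table. It held TAATCC 9 times on the same strand, at steps of 20 or 21 bases from 227 to 61 bases before the start. No other of the 27025 promoters held more than 4 copies, and 8 held at least 3. Below it stand promoters of Tdpoz1 (1 copy), BB287469 (2 copies on the reverse strand) and Zscan4f, which has none, and that of Nop56, a CG-rich ribosome biogenesis promoter with a high r on PC1 (0.97). Capitals mark TAATCC or its reverse complement in the first 4 and GGGCGG or its reverse complement in Nop56, and each run is 250 bases of the gene's own strand. A match describes letters in this window, not a bound site.
Zfp352, chr4:90218570-90218819, plus strand: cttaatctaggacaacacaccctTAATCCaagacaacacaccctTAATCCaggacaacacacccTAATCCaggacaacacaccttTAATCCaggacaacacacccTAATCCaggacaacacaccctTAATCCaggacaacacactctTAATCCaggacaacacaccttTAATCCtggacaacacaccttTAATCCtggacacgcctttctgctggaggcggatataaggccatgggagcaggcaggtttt
Tdpoz1, chr3:93676284-93676533, minus strand: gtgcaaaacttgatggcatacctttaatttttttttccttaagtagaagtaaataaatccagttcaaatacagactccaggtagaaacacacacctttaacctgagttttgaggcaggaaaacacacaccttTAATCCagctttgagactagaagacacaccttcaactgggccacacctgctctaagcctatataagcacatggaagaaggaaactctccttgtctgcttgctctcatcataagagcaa
BB287469, chr12:87816327-87816576, plus strand: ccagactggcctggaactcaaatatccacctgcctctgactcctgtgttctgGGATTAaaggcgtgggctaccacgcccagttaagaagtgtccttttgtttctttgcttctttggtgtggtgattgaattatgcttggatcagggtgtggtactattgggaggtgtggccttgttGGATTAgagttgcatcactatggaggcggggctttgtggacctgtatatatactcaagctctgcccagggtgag
Zscan4f, chr7:11397665-11397914, plus strand: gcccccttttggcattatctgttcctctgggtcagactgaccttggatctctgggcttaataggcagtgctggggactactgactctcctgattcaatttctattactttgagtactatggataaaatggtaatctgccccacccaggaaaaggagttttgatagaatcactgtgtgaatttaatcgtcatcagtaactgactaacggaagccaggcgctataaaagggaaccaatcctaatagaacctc
Nop56, chr2:130274162-130274411, plus strand: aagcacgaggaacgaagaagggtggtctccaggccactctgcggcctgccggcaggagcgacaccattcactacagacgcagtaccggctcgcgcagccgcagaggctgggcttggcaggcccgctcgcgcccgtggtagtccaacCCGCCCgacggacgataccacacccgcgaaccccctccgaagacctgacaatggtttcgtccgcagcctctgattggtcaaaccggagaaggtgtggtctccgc

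The Zfp352 levels beside this sequence were those above, 33.1 to 579 CPM (BCV 0.743, 1.26 times the trend). Tdpoz1 and BB287469 had 1.48 and 1.49 times the trend and Zscan4f 1.21, so genes with and without the motif were among the variable ones. Nop56 had 40.7 to 683 TPM and 1.17 times the trend.

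Most counts of Y-linked genes fell in the same 5 embryos. These genes were looked at after the values were seen. Eif2s3y, the Y-linked copy of a translation initiation factor subunit, had 34.3, 27.8, 27.1, 18.9 and 9.95 CPM in WT23, WT24, WT8, WT12 and WT21. It had 1 count in WT22 (0.223 CPM) and 0 counts in WT9, WT15, WT19 and WT20, where 0 counts allow up to 0.710 to 2.19 CPM. Uty had 5.47 to 14.7 CPM in the same 5 embryos and 0 counts in the other 5. Kdm5d had 3.07 to 14.7 CPM in those 5, 3 counts in WT15, 2 in WT20 and 0 in the remaining 3. Usp9y had counts in those 5 only. Ddx3y, Zfy2 and Zfy1 had counts in only some of them. Ddx3y had 0 counts in WT8, Zfy2 in WT21, and Zfy1 in WT12, WT21 and WT23. The 5 embryos with Eif2s3y above 9 CPM were also among the 6 with a positive position on PC1, the other being WT22. That holds only with WT19 included, since without it WT23 stood at -9.76 on PC1. The part of the embryos' sex in PC1 was not tested. Xist, the RNA that silences an X chromosome, had at most 14 counts, in WT15. It had 5 in WT9, 4 in WT8, 3 in WT20, 2 in WT19, WT22 and WT23, and 0 in WT12, WT21 and WT24. WT8 and WT23 thus had counts of both Xist and Eif2s3y, and Xist did not divide the embryos as the Y-linked genes did.

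Embryos were compared by plate row, a recorded factor. Plate column was also recorded, with at most 3 of the embryos in a column, and was not compared. Rows 4 and 2 to 3 held 6 and 4 embryos, and the row follows the number in the titles, so row and any difference between the animals behind the numbers cannot be told apart. Over 13048 genes, edgeR's quasi-likelihood test with Benjamini-Hochberg adjustment called 0 genes (0%) between row 4 and rows 2 to 3. At an unadjusted p under 0.05 in the edgeR test there were 301 genes, only 2.31% of those tested, 95 higher and 206 lower in row 4. Limma voom also called 0 after adjustment. DESeq2 called 2 genes, both lower in row 4, among them Slc16a3. These p-values measure the spread between embryos, some of which may share parents.

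Slc16a3, a lactate exporter, had 0, 0.223, 1.02, 1.25, 3.62 and 4.76 CPM in row 4 (WT19, WT22, WT20, WT23, WT24 and WT21), against 7.36, 9.33, 32.7 and 99.4 CPM in rows 2 to 3 (WT12, WT9, WT15 and WT8). The groups did not overlap. However, Slc16a3 had the lowest unadjusted p (0.000314, edgeR quasi-likelihood test) of the genes named from this same comparison. A gap between its groups was thus favoured by the choice of gene. How many of the 13048 genes separate as fully was not counted, so the gap carries no weight of its own. The fitted log2 fold change of Slc16a3 was -4.28 ± 0.93 (SE), or -3.14 without WT8. Its adjusted p was 1.00 by the quasi-likelihood fit of edgeR and 0.0117 by DESeq2. Timm17a, a subunit of the mitochondrial import channel, averaged 151 ± 75.1 CPM in row 4 and 62.4 ± 17.3 CPM in rows 2 to 3 (SD, n = 6 and 4). It was not called.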

How the data were processed

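Single WT 2-cell embryos were measured by Smart-seq2 RNA sequencing. Per the submitters' processing notes, reads were handled with RSEM 1.3.3, STAR 2.7.8a, FastQC 0.11.8 and cutadapt 2.3 (builds mm10 and GRCm38), and strand settings are not given in the sources used here. The authors deposited expected counts per gene, all of them whole numbers, which rounding did not change, and TPM per gene, which RSEM-type processing scales by effective length so that short transcripts weigh more. The deposited table also held 5 transgene entries, with 0 counts, which were left out of totals. An FPKM-labelled file repeated the TPM values and was set aside. Samples were grouped by the labels, plate rows came from the deposited well table, and only WT libraries were used, at 1842308 to 5309505 counts each, where 0 counts allow up to 3 counts (counting error only).

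From the counts, edgeR 4.0.16 (R 4.3.3) gave TMM-scaled CPM, the low-count filter and intercept-only dispersions, of which the BCV is the square root. Principal components and Pearson correlations used log2(CPM + 1). Plate rows were compared with edgeR's quasi-likelihood test, with DESeq2 1.42.0 and limma 3.58.1 as alternatives, at an adjusted p of 0.05. Gene classes, lengths and positions came from GENCODE annotation of GRCm38 and promoters from RefSeq (GRCm38.p6), at the first listed start of each gene. The scripts were tested on simulated data with known changes.

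Named genes were the 25 with the highest median TPM, mitochondrial genome apart. To these were added, among genes with standard symbols and a mean of at least 50 CPM, the 20 with the highest and 15 with the lowest BCV relative to the trend and the 6 with the largest loadings on PC1 in each direction. The rule further named up to 5 members of each list and up to 10 genes present in some embryos and absent in others. It also named up to 4 genes per direction of the row comparison. The 5 most like Zscan4d came from tested genes within the same limits of symbol and mean level. Some genes that the rule picks are not reported here. Other genes were named from the lists after their values were seen. The members and lists were chosen with earlier results of these data known. Alternatives changed the scaling, filter, shrinkage, depth, pseudocount and set of embryos.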

Additional observations from a re-analysis of the deposited data

Results flagged for a closer look

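Single embryos stood far from the other 9 in 27 of 193 measures, by the gap to the nearest embryo over the whole range on the log2(CPM + 1) scale for genes (above Dixon's 95% limit for 10 samples). That limit refers to a single measure chosen beforehand. Many of these measures were genes named for their spread in these same embryos, and genes move together. The count can therefore not be set against a chance rate. Of the 27, 21 were in WT19 and 6 in WT20.

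WT19 was above the others, in CPM, for Omt2b (37583, others up to 8336), Omt2a (25372), Oaz1 (14959), Bcl7c (12869), Fam220a (10492), Eif1 (6115), Birc5 (3104), Cox8a (3039), Rps27l (1735), Snrpg (1167), Hspb1 (823) and Gm12481 (650). It was below the others for Spin1 (2288, others from 8362), Oog3 (657), Eif4e (145), Ccnb1 (138), Hspa8 (60.6), Cnot8 (57.0), Th (36.5) and Tdpoz4 (5.84). Its position on PC2 was 77.6.

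WT20 was below the others for Psma3 (28.1 CPM, others from 132), Snrpc (21.4), Cdkn1a (13.8), Mt1 (6.13), U2af1 (5.62) and Cnot10 (3.06). These 2 libraries were also the shallowest. In WT19, but not WT20, the quartile of genes with the shortest transcripts lay well above that with the longest. The second-shortest quartile was the lowest in WT19. The part of depth or of length in these values was not tested.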

How the results depend on the processing

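No paired analysis was possible because only WT embryos enter, and the replicate numbers name single embryos. The median BCV (0.550) ran from 0.507 to 0.569 with each embryo left out in turn, but was 1.32 with no low-count filter. The median rank correlation between embryos ran from 0.726 to 0.780, and the share of variance on PC1 from 34.5% to 43.8%, or 54.0% with the 500 most variable genes. Genes detected in all embryos numbered 9865 to 10515 with each embryo left out in turn and 4677 with 12 embryos of at least 100000 counts. The share of TPM in the 100 most abundant genes was 37.1% without the mitochondrial genome, and 34.9% on the CPM scale.

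The count of genes at 1.5 times the trend was the least stable: 194 with no filter, 87 above a mean of 50 CPM, 321 with no shrinkage, 16 with thinned libraries, 6 with 12 embryos, and 11 to 61 with each embryo left out in turn. Fewer or more genes pass each filter, and no shrinkage widens all estimates by construction. Of the 25 genes, 0 were among the 194, 14 among the 87, 25 among the 321, 9 among the 16, 5 among the 6 and 14 among the 61 without WT19. Genes at or below the trend divided by 1.5 numbered 138, 31 and 1404 with no filter, above 50 CPM and with no shrinkage, and 0 in the other settings. The row comparison gave 2 calls with DESeq2 and 4 with no filter (each lower in row 4, Slc16a3 among them in both), and 0 with each embryo left out in turn. Values without WT19, or without WT19 and WT20, were added after the data were seen. The median of the activation list relative to the trend was 1.24 (29 genes) and 1.15 (31 genes) in those 2 settings.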

Other observations

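Some genes were abundant in some embryos and had no count in others. At 0 counts in at least 2 embryos and at least 50 CPM in at least 2, there were 20 genes, 7 of them with a standard symbol: Calhm3, C1rl, Ier5, Spesp1, Kank4, Lrch4 and Coro2b. Calhm3, a channel subunit, had 397 counts in WT8, 331 in WT22 and 324 in WT24, and 0 in WT9, WT15 and WT20. Lrch4, a leucine-rich repeat protein, had 434 counts in WT24 and 292 in WT23, and 0 in WT19 and WT21. Ier5, an immediate early gene, had 101 CPM in WT12 and 0 counts in WT20 and WT24. Lineage regulators were of both kinds: Pou5f1, a stored pluripotency factor, ran from 246 CPM in WT24 to 1691 CPM in WT19, while Nanog reached 1.45 CPM at most and Cdx2 13.9 CPM, in WT9.

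Several groups with housekeeping roles stayed near the centre of all genes, whose median relative to the trend was 0.960. The medians were 0.993 for the proteasome, 0.988 for splicing, 0.960 for translation initiation, 0.973 for the cell cycle, 0.974 for DNA repair and 0.969 for heat shock. With all embryos, ribosomal protein genes (1.04) and nuclear oxidative phosphorylation genes (1.08) lay higher. Of maternally expressed imprinted genes 11 of 25 were tested, and of paternally expressed ones 5 of 30.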
